A study of Mus musculus with 6 samples.

Results

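The E2F transcription factor family of mouse D2.OR mammary tumor cells was followed here through 10 genes. They were the activating E2f1, E2f2 and E2f3, the repressing E2f4, E2f5 and E2f6, the atypical repressors E2f7 and E2f8, and the DP partners Tfdp1 and Tfdp2. They were chosen by symbol, as array features (transcript clusters) whose platform annotation gives exactly 1 gene symbol. Each of the 10 had 1 such cluster, among 22180 genes with a single symbol and 41345 clusters on the array. The rule itself used no difference between groups, but the members were chosen with earlier results of these data known.

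D2.OR is a line that stays latent after it has disseminated, and 3 groups of its cells were profiled with 2 Mouse Gene 2.0 ST arrays (Affymetrix) per group. BORG/sgTRIM28 cells carried the full-length murine long noncoding RNA BORG and a CRISPR/Cas9 knockout of TRIM28, the co-repressor that BORG binds. BORG cells carried full-length murine BORG without that knockout, and parental cells carried the empty vector. All cells were harvested after 7 days of 3D-culture on a Cultrex cushion, a basement membrane matrix. BORG was introduced by stable transfection with G418 selection, the line had been made to express luciferase, and the Cas9 and guide vector was selected with puromycin. Whether the BORG and parental groups also carried a guide vector is not in the sample labels, and the sources used here do not state whether any line was 1 clone. The arrays of a group are labelled biological replicates, and nothing says whether they came from separate derivations of a line, so p-values measure the spread between these arrays.

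E2F proteins sit at the gate between G1 and S phase. Activating E2Fs bind DNA together with a DP partner and switch on genes for DNA replication once cyclin-dependent kinases have released them from the retinoblastoma family of pocket proteins. E2F4 and E2F5 repress the same genes together with pocket proteins in resting cells, E2F6 represses without pocket proteins through Polycomb-type complexes, and E2F7 and E2F8 bind without a DP partner and turn E2F targets down again during S phase.

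The promoters of E2f8, E2f7 and E2f6 are shown because E2f8 and E2f6 were the members called different between groups and E2f7 is the closest relative of E2f8. The windows run from 250 bases before to 50 bases after a transcript start (RefSeq, build GRCm38.p6). They are written 5′ to 3′ along the gene, with capitals marking E2F-type words on either strand. The words searched were TTCCCGC, next the variant TTGGCGC, then the form TTCGCGC, and last the form TTGCCGC.
E2f8, chr7:48881547-48881846, minus strand: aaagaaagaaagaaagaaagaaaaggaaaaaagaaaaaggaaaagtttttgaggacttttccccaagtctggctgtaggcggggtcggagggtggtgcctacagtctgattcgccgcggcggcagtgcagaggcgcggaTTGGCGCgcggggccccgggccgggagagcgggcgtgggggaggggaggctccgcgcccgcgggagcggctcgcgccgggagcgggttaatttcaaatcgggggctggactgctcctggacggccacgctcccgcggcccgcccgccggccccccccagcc
E2f7, chr10:110745189-110745488, plus strand: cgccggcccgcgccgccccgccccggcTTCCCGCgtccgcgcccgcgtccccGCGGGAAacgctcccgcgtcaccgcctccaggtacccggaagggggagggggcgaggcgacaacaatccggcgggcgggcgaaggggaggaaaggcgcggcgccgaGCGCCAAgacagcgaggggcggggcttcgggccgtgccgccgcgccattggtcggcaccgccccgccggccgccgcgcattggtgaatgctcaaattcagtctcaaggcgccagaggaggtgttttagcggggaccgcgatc
E2f6, chr12:16810715-16811014, plus strand: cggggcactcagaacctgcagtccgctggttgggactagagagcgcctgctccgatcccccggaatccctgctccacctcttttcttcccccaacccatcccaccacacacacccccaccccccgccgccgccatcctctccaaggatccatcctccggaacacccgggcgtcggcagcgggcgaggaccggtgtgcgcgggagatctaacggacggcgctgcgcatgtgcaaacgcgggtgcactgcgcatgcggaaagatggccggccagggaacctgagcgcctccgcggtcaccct
The E2f8 window held 1 E2F-type word, from position -111 to position -105, where negative positions count back from the start base. This match overlapped a CCAAT-box match (CCAAT, either strand) on the other strand, and a cell cycle homology word (CHR, TTTGAA, either strand) lay on the other strand from -20 to -15. The E2f7 window held 3 E2F-type words and 2 CCAAT-box matches, and the E2f6 window held 0 of either.

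Windows were given for 8 of the 10 members, all but E2f4 and E2f5. At least 1 E2F-type word was found for E2f2, E2f3, E2f7, E2f8 and Tfdp1, and none in the windows of E2f1, E2f6 and Tfdp2. Some windows do not lie at the outermost start that RefSeq annotates for the gene. Their start base lay 466 bases downstream of it for E2f1, 477 bases for E2f8, 56 bases for E2f6 and at least 62459 bases for Tfdp2, whereas the E2f7 window lay at the outermost start. Promoter sequence at other starts of these genes was not searched. Of all 32851 promoter windows of the same length, 9.57% held an E2F-type word, 17.9% a CHR and 37.4% a CCAAT box. A match describes these letters only.

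Trim28 was checked first. Its log2 signals were 9.50 and 9.53 in BORG/sgTRIM28 cells, 9.88 and 9.96 in BORG cells and 10.49 and 10.68 in parental cells. The 3 groups did not overlap. The change in BORG/sgTRIM28 against BORG cells was -0.41 (limma adjusted p = 0.0911) and that in BORG against parental cells was -0.67 (limma adjusted p = 0.0271). Cas9 edits can leave a transcript's level unchanged, so these values bear only weakly on the labels. Array medians lay between 5.18 and 5.24 on the log2 scale, the arrays of a group correlated at 0.989 to 0.992 across clusters, and no detection values were used, so signal over background is unknown. Krt8, Krt18, Krt14 and Vim were bright on all arrays, whereas Epcam, an epithelial adhesion protein, stood at 4.68 to 5.01. Of the other epithelial and mammary markers, Cdh1 read 6.19 to 6.84 and Elf5 3.50 to 4.13. The per-array mean of the 7 measured epithelial and mammary markers was 8.20 to 8.33 in BORG/sgTRIM28, 8.73 to 8.85 in BORG and 8.08 to 8.12 in parental cells. Of these markers, 4 of 7 were called in BORG against parental cells and 4 of 7 in BORG/sgTRIM28 against BORG cells. The shares of all clusters called were 7.09% in the first comparison and 9.55% in the second. Krt8, Krt18, Krt14 and Vim read higher on both BORG arrays than on all other arrays. Among markers of other cell types, 0 of 7 for leukocytes, 0 of 5 for endothelial cells and 0 of 4 for adipocytes were called in these comparisons, and 2 of 6 for fibroblasts in each. The fibroblast marker Pdgfra was lower in BORG cells, at 10.93 and 11.15 against 12.02 to 12.29 on the other arrays. The fibroblast marker Col1a1 was higher in BORG cells, at 10.27 and 9.94 against 8.66 to 8.96. The part of these marker shifts in the E2F results was not tested.

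Among the 10 genes, E2f8 changed most. Its signal was higher in BORG than in parental cells by 2.00 on the log2 scale (95% interval 3.35-fold to 4.79-fold) and 3.81-fold lower in BORG/sgTRIM28 than in BORG cells. The other 9 genes all stayed within 0.5 on the log2 scale in each comparison. The activating class had no called gene in any comparison, and its sister atypical factor E2f7 was not called either. E2f6 was the only other call, 1.38-fold higher in BORG/sgTRIM28 than in BORG cells.

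**Figure D1:**
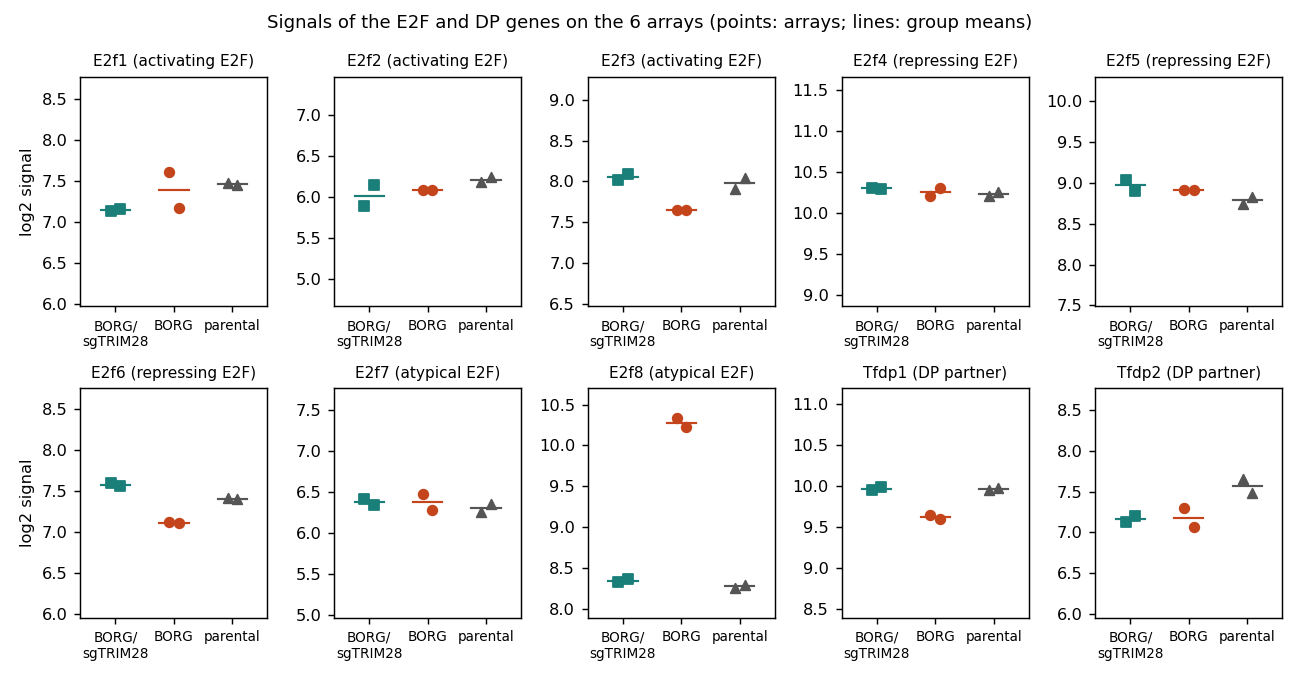
Log2 signal of each E2F and DP gene on the 6 arrays, with BORG/sgTRIM28, BORG and parental cells from left to right. Points are arrays, lines are group means, and every panel spans the same log2 range. E2f8 stood at 10.33 and 10.23 in BORG cells, above all other arrays, whereas the other panels show shifts within 0.5.

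E2f8, which encodes an atypical repressor of S-phase genes, had log2 signals of 8.33 and 8.37 in BORG/sgTRIM28 cells, 10.33 and 10.23 in BORG cells and 8.26 and 8.30 in parental cells. Both BORG arrays lay above all 4 others, and the other 2 groups lay side by side. The means were 8.35 ± 0.03, 10.28 ± 0.07 and 8.28 ± 0.02 in BORG/sgTRIM28, BORG and parental cells (SD, n = 2 each). Against parental cells, BORG cells differed by 2.00 (95% interval 1.74 to 2.26, limma adjusted p = 0.000958). It ranked 119 of the 22180 genes by size of rise. Against BORG cells, BORG/sgTRIM28 cells differed by -1.93 (95% interval -2.19 to -1.67, limma adjusted p = 0.00069), which ranked 174 by size of fall. Both comparisons use the same BORG arrays, so they are not independent. Between BORG/sgTRIM28 and parental cells the difference was 0.07 (95% interval -0.19 to 0.33, limma adjusted p = 0.90). The arrays of those 2 groups did not overlap, but the interval of the difference holds 0. Each array measured a whole culture, so fewer cells with a transcript and less of it per cell cannot be told apart. Both E2f8 calls were lost with the methods' t-test after Benjamini-Hochberg adjustment (adjusted p = 0.177 and 0.166) and held in the other 13 alternatives, with changes from 1.95 to 2.05 and from -1.99 to -1.88.

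E2f7 encodes the other atypical factor, which can pair with E2F8 on DNA. It read 6.42 and 6.34 in BORG/sgTRIM28 cells, 6.48 and 6.27 in BORG cells and 6.25 and 6.36 in parental cells. The groups overlapped throughout. BORG minus parental was 0.07 (95% interval -0.23 to 0.37), which leaves out a rise of the size that E2f8 showed. BORG/sgTRIM28 minus BORG was 0.01 (95% interval -0.29 to 0.30). The printed windows of E2f7 and E2f8 lie at different kinds of start, so their numbers of E2F-type words are not compared.

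**Figure D2:**
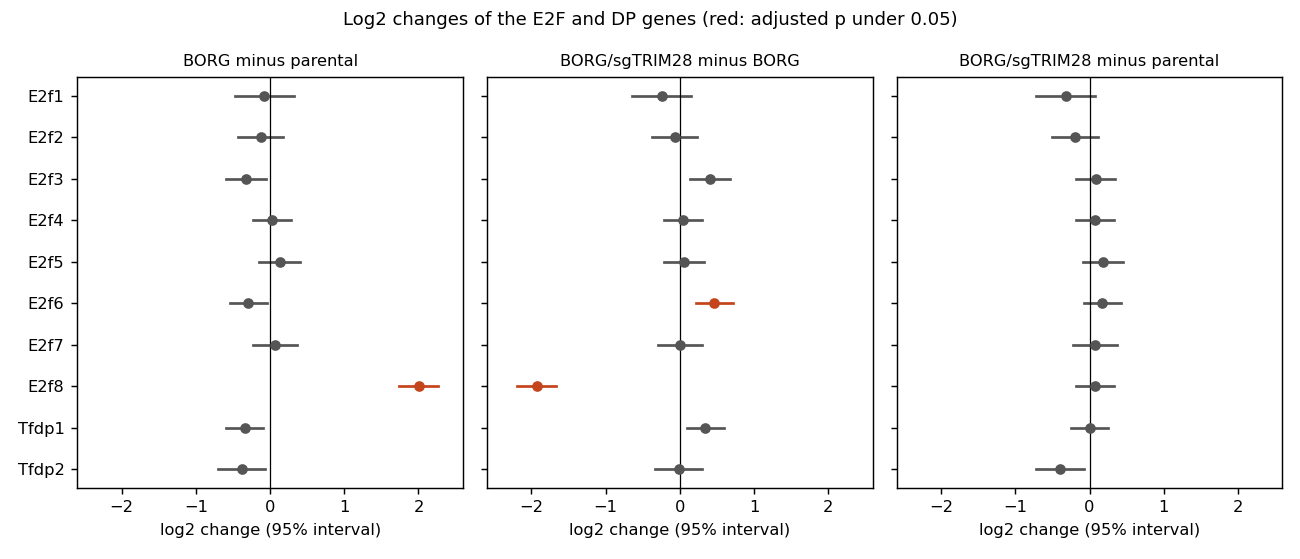
Log2 change of each E2F and DP gene with its 95% interval in 3 comparisons, BORG minus parental, BORG/sgTRIM28 minus BORG, and BORG/sgTRIM28 minus parental. Red marks an adjusted p under 0.05, which E2f8 passed at 2.00 and -1.93 and E2f6 at 0.46.

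No activating E2F gene was called in any comparison. E2f1, the best studied activator, had log2 signals of 7.13 and 7.16 in BORG/sgTRIM28 cells, 7.61 and 7.17 in BORG cells and 7.48 and 7.46 in parental cells. Its BORG arrays lay 0.44 apart, the widest gap between arrays of a group among the 10 genes, and enclosed the parental values. Its change in BORG against parental cells was -0.08 (95% interval -0.47 to 0.32), and that in BORG/sgTRIM28 against BORG cells was -0.24 (95% interval -0.64 to 0.15). E2f2, its close relative, read 5.89 and 6.14 in BORG/sgTRIM28, 6.08 and 6.09 in BORG and 6.19 and 6.24 in parental cells. The parental pair was the highest, and the other 2 groups overlapped.

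E2f3, an activator with overlapping duties in proliferating cells, read 8.02 and 8.10 in BORG/sgTRIM28 cells, 7.66 and 7.65 in BORG cells and 7.91 and 8.04 in parental cells. The BORG arrays were the lowest pair. The change was -0.32 (SE 0.11) in BORG against parental cells and 0.40 (SE 0.11) in BORG/sgTRIM28 against BORG cells. Neither passed, with limma adjusted p = 0.156 for the comparison with parental cells and 0.0787 for that of BORG/sgTRIM28 with BORG cells. The second passed when only clusters above the median signal were tested (limma adjusted p = 0.0328) and with 1 cluster per gene (limma adjusted p = 0.0343).

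Among the repressing genes, E2f4 and E2f5 showed small differences. E2f4, the main E2F of resting cells, lay between 10.21 and 10.31 on all 6 arrays, with changes of 0.02 in BORG against parental cells and 0.04 in BORG/sgTRIM28 against BORG cells. E2f5 lay between 8.74 and 9.03, with changes of 0.13 and 0.05 in the same comparisons. The upper bound farthest from 0 for these genes was 0.45 (E2f5, BORG/sgTRIM28 minus parental, 95% interval -0.09 to 0.45).

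E2f6, the repressor that works without pocket proteins, read 7.60 and 7.55 in BORG/sgTRIM28 cells, 7.12 and 7.10 in BORG cells and 7.41 and 7.40 in parental cells. The 3 groups did not overlap, with BORG cells lowest and BORG/sgTRIM28 cells highest. BORG/sgTRIM28 cells exceeded BORG cells by 0.46 (95% interval 0.21 to 0.71, limma adjusted p = 0.0443). In BORG against parental cells it was -0.29 (95% interval -0.54 to -0.04, limma adjusted p = 0.164), which was not called. The call lay close to the threshold, and it was lost in 10 of 14 alternatives, among them the omission of any of the 6 arrays (limma adjusted p from 0.0857 to 0.191) and median centring (limma adjusted p = 0.0676), although the change stayed between 0.40 and 0.51.

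The DP partners, which pair with E2f1 to E2f6 products, were not called. Tfdp1 read 9.95 and 9.99 in BORG/sgTRIM28 cells, 9.65 and 9.60 in BORG cells and 9.96 and 9.98 in parental cells. Its BORG arrays lay below all others, by 0.34 on the log2 scale against either group (limma adjusted p = 0.114 for BORG against parental cells and 0.0998 for BORG/sgTRIM28 against BORG cells). With a variance trend in the fit both differences passed (limma adjusted p = 0.0333 and 0.0285). Tfdp2 read 7.13 and 7.20 in BORG/sgTRIM28, 7.29 and 7.07 in BORG and 7.65 and 7.48 in parental cells. The parental arrays were the highest pair, with changes of -0.38 in BORG and -0.40 in BORG/sgTRIM28 against parental cells (limma adjusted p = 0.16 and 0.484).

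Counted over the family, 1 of 10 genes was called in BORG against parental cells, where 7.09% of all clusters were called. Between BORG/sgTRIM28 and BORG cells 2 of 10 were called, against 9.55% of all clusters, and between BORG/sgTRIM28 and parental cells limma called 0 of 10, against 0.121%. At an unadjusted limma p under 0.05 the counts in these 3 comparisons were 5, 4 and 1 (Tfdp2) of 10, against 21.7%, 24% and 8.7% of all clusters, and the methods' t-test gave 5, 4 and 2. At a 2-fold change with that p they were 1, 1 and 0, each 1 being E2f8, against 3.31%, 3.95% and 0.622%. Arrays did not overlap for 7, 5 and 7 of the 10 genes in the same 3 comparisons, against 50.5%, 52.4% and 42.5% of all clusters. The family was not tested as a set. The median change over the 10 genes was -0.10 in BORG against parental cells, 0.02 in BORG/sgTRIM28 against BORG cells and 0.07 in BORG/sgTRIM28 against parental cells. The medians over all genes were -0.03, 0.06 and 0.01.

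By class, the activating genes ran from -0.32 to -0.08 in BORG against parental cells, the repressing genes from -0.29 to 0.13, and the DP partners from -0.38 to -0.34. The atypical genes were at 0.07 and 2.00. Between BORG/sgTRIM28 and BORG cells the activating genes ran from -0.24 to 0.40, the repressing genes from 0.04 to 0.46 and the DP partners from -0.02 to 0.34, with the atypical genes at 0.01 and -1.93. The atypical class was thus split between its 2 members. With 2 arrays a group the smallest exact two-sided permutation p is 0.333, so classes were not tested against each other.

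The genes whose pattern over the 6 arrays was most like that of E2f8 were Adamts14, Pold4 and Sema4b. Likeness was the root mean square difference between signals after each gene was centred on its own mean, over 22179 other genes. It was 0.0347 for Adamts14, a procollagen protease, 0.0435 for Pold4, a small subunit of DNA polymerase delta, and 0.0940 for Sema4b, a semaphorin, whereas E2f8 itself varied by 0.928 about its mean. For E2f6, which varied by 0.192, they were the small nucleolar RNA Snord49b (0.0150), the kinase gene Prkci (0.0225) and the mitochondrial protease gene Clpp (0.0243).

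Genes that E2Fs are known to control at the G1/S boundary moved mostly opposite to E2f8. Of 43 measured genes of 48 listed, 25 fell and 1 rose in BORG against parental cells, where 2.98% of all clusters were called lower and 4.12% higher. Their median change was -0.79, against -0.03 for all genes. When BORG/sgTRIM28 was set against BORG cells, 22 rose and 1 fell, where 4.24% of all clusters were called higher and 5.31% lower, with a median of 0.76. Both comparisons use the same BORG arrays, so these counts, and those of the roles and lists below, are not independent. Against parental cells, limma called 0 in BORG/sgTRIM28 cells, where 0.0484% of all clusters were called higher and 0.0726% lower, with 3 at an unadjusted p under 0.05 (6 by the methods' t-test) and a median of -0.08. The list was chosen with earlier results of these data known, so its direction is a description.

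The promoters of Cdc6, which loads the replicative helicase, and Mcm5, a helicase subunit, are shown as targets with a called fall, with capitals for the same E2F-type words (RefSeq, GRCm38.p6).
Cdc6, chr11:98907901-98908200, plus strand: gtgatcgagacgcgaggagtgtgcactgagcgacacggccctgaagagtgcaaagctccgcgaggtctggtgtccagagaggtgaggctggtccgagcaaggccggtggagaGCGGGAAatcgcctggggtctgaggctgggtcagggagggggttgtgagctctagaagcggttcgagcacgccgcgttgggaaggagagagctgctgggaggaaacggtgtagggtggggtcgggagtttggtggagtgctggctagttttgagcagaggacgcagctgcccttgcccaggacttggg
Mcm5, chr8:75109259-75109558, plus strand: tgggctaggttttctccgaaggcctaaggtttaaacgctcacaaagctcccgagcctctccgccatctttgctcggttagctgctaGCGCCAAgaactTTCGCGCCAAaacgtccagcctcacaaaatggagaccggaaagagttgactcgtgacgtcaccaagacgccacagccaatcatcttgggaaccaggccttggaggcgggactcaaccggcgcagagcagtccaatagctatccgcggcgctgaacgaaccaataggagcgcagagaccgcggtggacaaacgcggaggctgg
The Cdc6 window, whose start base lay 442 bases downstream of the outermost start, held 1 E2F-type word and the Mcm5 window 3, of which the last 2 overlap each other. Of the 37 listed targets with a window, 26 (70.3%) held at least 1 such word, against 10.9% of the 27025 genes with a window.

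Helicase loading and activation genes fell most often. In BORG against parental cells 12 of 14 fell, with a median of -1.52, and in BORG/sgTRIM28 against BORG cells 9 of 14 rose, with a median of 1.39. The shares of all clusters called were 2.98% lower in the first comparison and 4.24% higher in the second. Roles were not tested against each other. Cdc6 read 7.63 and 7.71 in BORG/sgTRIM28 cells, 5.96 and 5.87 in BORG cells and 7.75 and 7.86 in parental cells. Its BORG arrays lay far below the other 4, with changes of -1.89 in BORG against parental cells (limma adjusted p = 0.00118) and 1.75 in BORG/sgTRIM28 against BORG cells (limma adjusted p = 0.00100). Mcm4, another helicase subunit, read 9.52 and 9.64 in BORG/sgTRIM28, 7.91 and 7.36 in BORG and 9.53 and 9.61 in parental cells. The helicase genes Mcm2, Mcm3 and Mcm5 changed by -1.76, -1.78 and -1.80 in BORG against parental cells.

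The other roles were smaller groups. The shares of all clusters called in BORG against parental cells were 2.98% lower and 4.12% higher. In BORG/sgTRIM28 against BORG cells they were 4.24% higher and 5.31% lower. Of 12 polymerase and fork genes 5 fell in BORG against parental cells and 5 rose in BORG/sgTRIM28 against BORG cells, among them Pcna, the sliding clamp, at -1.07 and 0.77. Of 3 checkpoint and repair genes, Chek1 (-1.68) and Brca1 (-1.63) fell in BORG against parental cells and rose by 1.39 and 1.48 in BORG/sgTRIM28 against BORG cells. Of 5 chromatin and histone supply genes 3 fell and 3 rose in the same comparisons. Of 5 nucleotide supply genes, Rrm1, Rrm2 and Tyms fell and Tk1, which encodes thymidine kinase, rose by 0.90 in BORG against parental cells. Tk1 read 6.74 and 6.85 in BORG/sgTRIM28, 8.22 and 7.69 in BORG and 7.06 and 7.05 in parental cells, so its BORG arrays were the highest pair, as for E2f8. The Tk1 rise (limma adjusted p = 0.0436) was lost with the replicate block, with only 4 arrays, with quantile normalization, with the methods' t-test and without any single array other than BORG replicate 2. Its fall in BORG/sgTRIM28 against BORG cells (limma adjusted p = 0.0174) was lost with the methods' t-test and without either BORG/sgTRIM28 array. The 4 genes for cyclins, a kinase and B-Myb lay between -0.47 and 0.12 in BORG against parental cells and between -0.24 and 0.31 in BORG/sgTRIM28 against BORG cells, without a call.

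**Figure D3:**
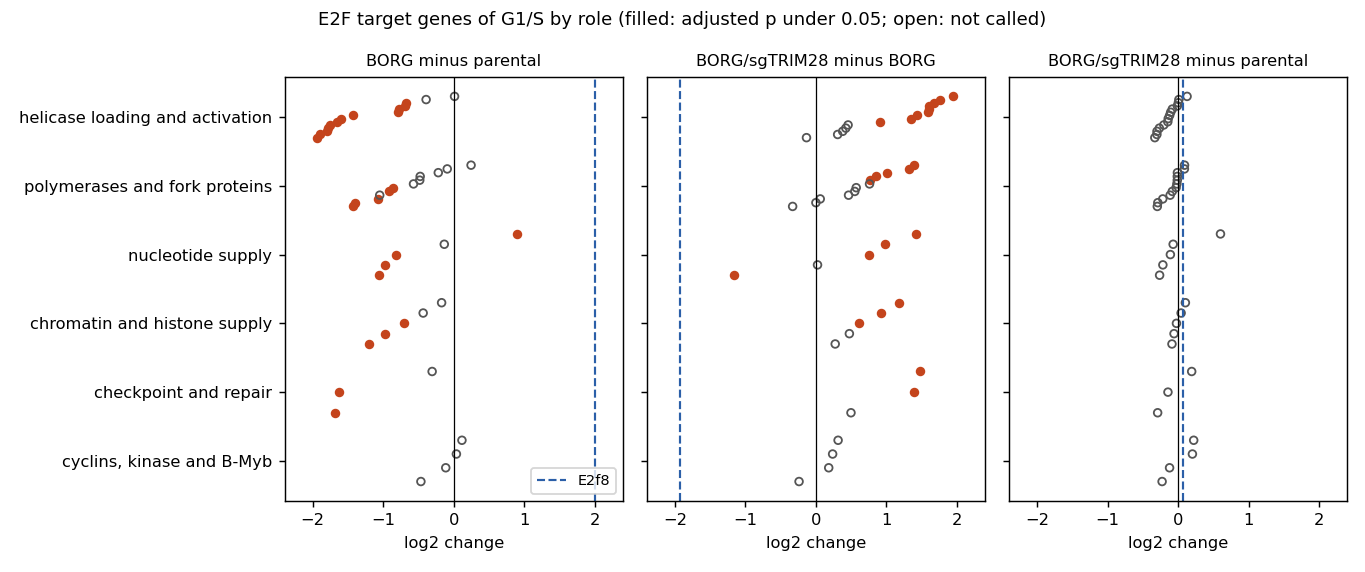
Log2 change of each measured G1/S target of E2Fs, by role, in BORG minus parental, BORG/sgTRIM28 minus BORG and BORG/sgTRIM28 minus parental. Filled points passed an adjusted p under 0.05, open points did not, and the dashed line is E2f8, which lay at 2.00 where the helicase genes had a median of -1.52.

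The number of target calls depended on single arrays. In BORG against parental cells it was 9 without parental replicate 1 and 7 without parental replicate 2, against 26 with all arrays. For BORG/sgTRIM28 minus BORG it was 13 without BORG/sgTRIM28 replicate 1 and 11 without BORG/sgTRIM28 replicate 2, against 23. The remaining omissions left 19 to 22 calls in the first comparison and 21 to 22 in the second.

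Pocket proteins and their partners in the MuvB complex, which joins E2F4 to repress cell cycle genes in resting cells, fell in part. Of 13 measured genes 6 fell and 0 rose in BORG against parental cells (median -0.51), and 5 rose and 0 fell in BORG/sgTRIM28 against BORG cells (median 0.45). Over all clusters 2.98% fell and 4.12% rose in the first comparison, and 4.24% rose and 5.31% fell in the second. Lin9, a MuvB core gene, read 7.73 and 7.66 in BORG/sgTRIM28, 6.72 and 6.58 in BORG and 7.86 and 7.90 in parental cells. Rbl1, which encodes the pocket protein p107, was at -0.72 and 0.57 in the same 2 comparisons, both called. Rb1, the retinoblastoma gene, stood the other way at 0.58 and -0.48 but was not called (limma adjusted p = 0.0722 and 0.104). The count in BORG against parental cells was 1 without either parental array and 2 without BORG replicate 1, and that in BORG/sgTRIM28 against BORG cells was 1 without either BORG/sgTRIM28 array and 3 without either parental array or BORG replicate 1.

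E2F6 acts with Polycomb-type proteins, and 17 of 18 listed partners were measured. In BORG against parental cells 4 fell and 0 rose (median -0.26), and in BORG/sgTRIM28 against BORG cells 6 rose and 0 fell (median 0.45), the same direction as E2f6 in the second comparison. Of all clusters 2.98% fell in the first comparison and 4.24% rose in the second. Mga, which links E2F6 to MAX, read 9.30 and 9.33 in BORG/sgTRIM28, 8.33 and 8.42 in BORG and 9.35 and 9.31 in parental cells. Its BORG arrays lay below the other 4, as did those of Pcgf6 (-1.12 and 1.08) and L3mbtl2 (-0.75 and 0.59), further subunits of that complex. These counts moved when single arrays were left out. Without either parental array limma called 0 of the 17 in BORG against parental cells, with 8 at an unadjusted p under 0.05 on all arrays (8 also by the methods' t-test), and the count was 1 without BORG replicate 1 and 2 without either BORG/sgTRIM28 array. For BORG/sgTRIM28 minus BORG it was 0 without BORG/sgTRIM28 replicate 2, 3 without BORG replicate 2 and 1 without any other array, with 10 at an unadjusted p under 0.05 on all arrays (9 by the methods' t-test).

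Germline genes that E2F6 is known to silence in mouse cells were not called. Of 11 measured genes of 14 listed, limma called 0 in each of the 3 comparisons, with 1 at an unadjusted p under 0.05 in each (2, 1 and 2 by the methods' t-test). All 11 genes were dim, with signals from 2.82 to 4.90 on every array, below the lowest array median of 5.18, so a change in them may not have been measurable. Their median changes were -0.07 in BORG against parental cells, 0.06 in BORG/sgTRIM28 against BORG cells and 0.04 in BORG/sgTRIM28 against parental cells. Of the 13 listed genes with a promoter window, measured or not, 9 (69.2%) held an E2F-type word, against 10.9% of the 27025 genes with a window.

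Upstream of the pocket proteins, 14 of 15 listed cyclins, kinases and inhibitors were measured. In BORG against parental cells 4 rose and 1 fell, and in BORG/sgTRIM28 against BORG cells 0 rose and 4 fell. The shares of all clusters were 4.12% higher and 2.98% lower in the first comparison and 4.24% higher and 5.31% lower in the second. Ccnd1, which encodes cyclin D1, read 9.27 and 9.24 in BORG/sgTRIM28, 10.75 and 10.94 in BORG and 9.05 and 9.11 in parental cells. It ran with E2f8, at 1.77 in BORG against parental cells (limma adjusted p = 0.00168) and -1.59 in BORG/sgTRIM28 against BORG cells (limma adjusted p = 0.00158). The genes Cdkn2b (0.95 and -1.36), Cdkn2d (1.13 and -1.20) and Cdkn2a (0.73 and -0.66) were called in the same directions as Ccnd1. Cdkn2b and Cdkn2d encode proteins that oppose cyclin D kinases. Cdkn2a has more than 1 protein product, and the cluster used here does not tell them apart. Cdkn1b, which encodes the inhibitor p27, fell by 0.52 in BORG against parental cells (limma adjusted p = 0.0374). That Cdkn1b call was lost with the replicate block, with only 4 arrays, with the methods' t-test and without any single array. Cdkn1a, which encodes the inhibitor p21, read 9.22 and 9.41 in BORG/sgTRIM28, 9.22 and 10.24 in BORG and 9.28 and 9.41 in parental cells. One BORG array was high and the other was not, and no comparison of Cdkn1a was called. The count was 1 without either parental array, 2 without BORG replicate 1 or either BORG/sgTRIM28 array and 3 without BORG replicate 2 in BORG against parental cells, and 2 without either BORG/sgTRIM28 array in BORG/sgTRIM28 against BORG cells.

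**Figure D4:**
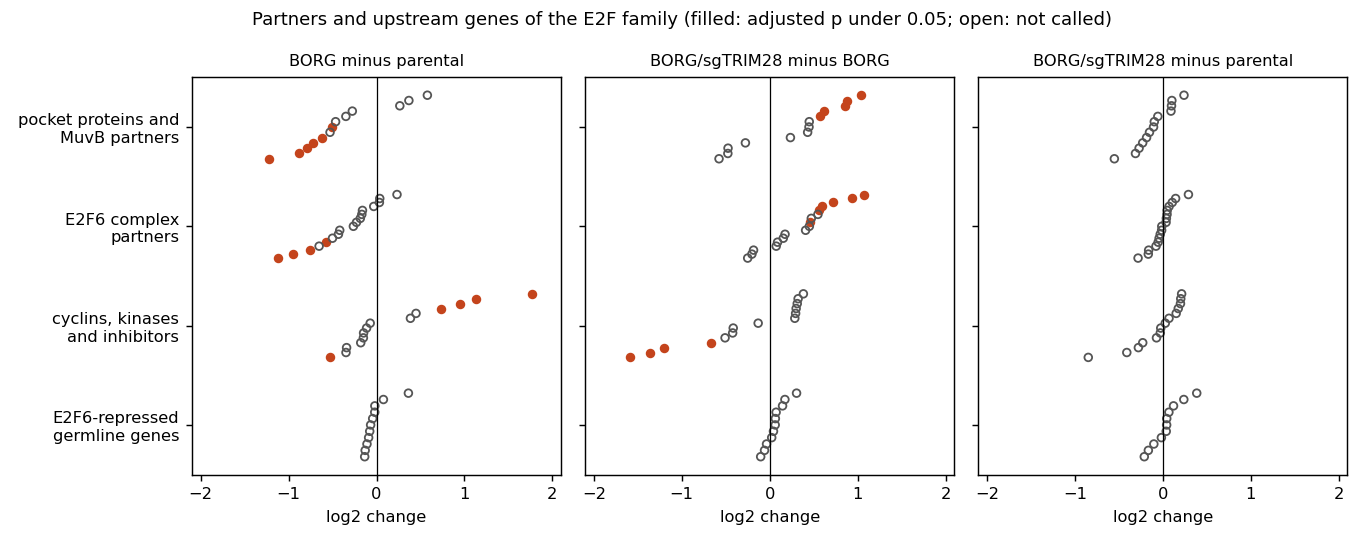
Log2 change of the genes around the E2F family, by list, in BORG minus parental, BORG/sgTRIM28 minus BORG and BORG/sgTRIM28 minus parental. Filled points passed an adjusted p under 0.05 and open points did not, and Ccnd1 was the highest point at 1.77 among the cyclins, kinases and inhibitors in BORG against parental cells.

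For BORG/sgTRIM28 minus parental, limma called 0 genes of these 3 lists of pocket proteins, E2F6 partners and upstream regulators, with 1, 2 and 2 at an unadjusted p under 0.05 (2, 2 and 6 by the methods' t-test). The change largest in size among these lists was that of the upstream gene Cdkn2c, at -0.85 (limma adjusted p = 0.117). Mybl2 was on both the target and the MuvB lists, Ezh2 on both the target and the E2F6 lists, and Ccne1 and Ccne2 on both the target and the cyclin lists.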

How the data were processed

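Total RNA of 6 cultures was labelled and hybridized, 1 array each. The authors normalized the arrays and deposited 1 log2 signal per transcript cluster and array. The submitters' processing notes name Affymetrix Expression Console and Transcriptome Analysis Console, and the summarization method is not stated in those notes or in the methods. Values ran from 1.92 to 13.7.

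Symbols came from the platform annotation, in which 23521 clusters had 1 symbol, 1820 several and 16004 none. The highest cluster by mean over the arrays stood for a gene. Group means over all 6 arrays were fitted with limma 3.58.1 in R 4.3.3, and variances were moderated by empirical Bayes (residual df 3, prior df 3.04). P-values were adjusted by Benjamini-Hochberg over all 41345 clusters of each comparison, and an adjusted p under 0.05 was called. The fit was tested on simulated data. The alternatives tried were a replicate block, a fit to the 4 arrays compared, quantile normalization or median centring of the arrays, a variance trend, above-median clusters alone, a table reduced to 1 cluster for each gene, the t-test of the methods, a 2-fold change with an unadjusted p, and omission of each array in turn. Same-numbered arrays were checked for shared deviations. The text names the 10 genes, Trim28, Ccnd1, Cdkn1a and the 3 genes most like each called member. It also names some, not all, of the up to 4 called genes with the largest change per list and comparison. Further list genes (Tk1, Chek1, Brca1, Pcna, Rb1, Rrm1, Rrm2, Tyms, Cdkn1b, Cdkn2c and the list overlaps) were named after their values were seen. So were the markers Pdgfra and Col1a1. The members and gene lists were chosen with earlier results of these data known. The number of arrays limits the precision.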

Additional observations from a re-analysis of the deposited data

How the results depend on the processing

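Of 420 comparisons of a family gene with an alternative, 403 kept the direction and 384 also the side of the threshold, 12 lost a call, 7 gained one and 17 changed sign. The count of called E2F and DP genes in BORG against parental cells, 1, became 2 with a variance trend or above-median clusters and 0 with the methods' t-test. For BORG/sgTRIM28 minus BORG, 2, it became 1 with the replicate block, with only 4 arrays, with median centring or at 2-fold, 3 with a variance trend, 4 with above-median clusters or 1 cluster per gene, and 0 with the t-test. Leaving out arrays gave 1 to 1, 1 to 1 and 0 to 0 in the 3 comparisons. For the 26 and 23 called G1/S targets the t-test gave 0 and 0, 2-fold gave 16 in BORG against parental cells, and leaving out arrays gave 7 to 22 and 11 to 22. For the 6 and 5 pocket and MuvB genes the t-test gave 0 and 0, 2-fold 1 and 1, and leaving out arrays 1 to 4 and 1 to 4, and in BORG/sgTRIM28 against BORG cells the replicate block gave 3, 4 arrays gave 3 and 1 cluster per gene 9. For the 4 and 6 E2F6 partners the t-test gave 0 and 0, 2-fold 1 and 1, 4 arrays 2 and 1, above-median clusters 7 and 9, a variance trend 7 and 9, 1 cluster per gene 7 and 10, and leaving out arrays 0 to 3 and 0 to 3, and the replicate block gave 3 in BORG/sgTRIM28 against BORG cells. For the 5 and 4 cyclins, kinases and inhibitors the t-test gave 0 and 0, 2-fold 2 and 3, 4 arrays 2 and 3, the replicate block 3 and 3, a variance trend 6 and 7, and leaving out arrays 1 to 3 and 2 to 4. In BORG/sgTRIM28 against parental cells 1 cluster per gene gave 1 of that list, against 0, and every other count in that comparison stayed at 0. With the t-test, 5, 4 and 2 of the 10 family genes had an unadjusted p under 0.05 in the 3 comparisons. The causes of these moves were not tested, beyond the fewer arrays or clusters that some settings use by construction.

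The 17 sign changes all concerned changes of at most 0.08 in size. Median centring turned BORG/sgTRIM28 minus BORG to -0.014 for E2f4, -0.0061 for E2f5 and -0.052 for E2f7, and BORG/sgTRIM28 minus parental to -0.031 for Tfdp1. Quantile normalization turned BORG/sgTRIM28 minus BORG to 0.017 for Tfdp2. The other 12 came from leaving out 1 array. For BORG minus parental the range was -0.299 to 0.145 for E2f1, -0.020 to 0.068 for E2f4 and -0.031 to 0.171 for E2f7. For BORG/sgTRIM28 minus BORG it was -0.196 to 0.057 for E2f2, -0.0006 to 0.088 for E2f4, -0.017 to 0.120 for E2f5, -0.096 to 0.107 for E2f7 and -0.131 to 0.096 for Tfdp2. For BORG/sgTRIM28 minus parental it was -0.015 to 0.016 for Tfdp1.

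Deviations of same-numbered arrays were nearly uncorrelated over all clusters, at -0.01, -0.04 and 0.04. These values cannot exclude a shared effect on some genes, and the sample labels do not say whether same-numbered arrays were run together. The replicate block gave 2030, 2701 and 1 called clusters, against 2933, 3947 and 50. Each family gene had 1 cluster, so other clusters of the same symbol could not be tried. Without detection values, signal over background sets an unknown limit on dim genes, above all the 11 germline genes, of which 0 were left when only above-median clusters were tested.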

Other observations

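A gap of over 0.5 on the log2 scale between the arrays of a group was found for 0 of 105 family and list genes in BORG/sgTRIM28 cells, 12 in BORG cells and 0 in parental cells. The share in BORG cells, 11.4%, was near that over all clusters, which was 8.18% in BORG/sgTRIM28, 11.1% in BORG and 7.25% in parental cells. The 12 genes were Mcm4, Mcm5, Mcm6, Pold1, Fen1, Lig1, Tk1, Msh6, Rbl2, Pcgf6, Cdkn1a and Cdkn2d. Lig1, which encodes the ligase that joins Okazaki fragments, read 7.88 and 7.98 in BORG/sgTRIM28, 7.81 and 6.90 in BORG and 7.84 and 7.83 in parental cells. Rbl2, which encodes the pocket protein p130, read 8.62 and 8.58 in BORG/sgTRIM28, 9.56 and 8.79 in BORG and 8.97 and 8.85 in parental cells. None of the 10 E2F and DP genes had such a gap. These genes were named after their values were seen.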
